A study of Macaca mulatta with 13 samples.

Results

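Transcript levels of 10 genes that govern the choice between glucose and fat as a fuel, and the uptake of fat, were examined in the vastus lateralis, a thigh muscle, of old male rhesus monkeys (Macaca mulatta). The genes were PDK4, PDK2, UCP3, ANGPTL4, LPL, CD36, FABP3, ACSL1, SLC27A1 and PNPLA2, chosen by name for their roles in the fasting response and lipid uptake. Earlier results of these data were known when the genes were chosen. All 10 were on the array, among 14132 genes with a named probe set, and they had 16 of the 52766 probe sets that were not controls. The 5 control animals ate a control diet and were 27 to 30 years old, and the 8 calorie-restricted (CR) animals ate a calorie restricted diet and were 27 to 32 years old. A duration of 18.5 years is given in a sentence that names both groups, and it is taken here as that of the CR animals. One-colour Affymetrix arrays were used, 1 per animal, and the precision is limited by how many there are. Ages were given per group and not per animal, and the sources used here did not say how the diets were composed or whether the animals had fasted before the muscle was taken.

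When glucose is scarce, muscle turns to fatty acids. Pyruvate dehydrogenase kinases phosphorylate and switch off the pyruvate dehydrogenase complex, which keeps pyruvate from being oxidised, while lipoprotein lipase on the capillary wall releases fatty acids from circulating triglycerides. These acids enter the fibre through CD36 and fatty acid transport proteins, are bound by FABP3 and are activated to acyl-CoA by ACSL1. Several of these genes, PDK4, UCP3 and ANGPTL4 among them, are known targets of the fatty acid sensing nuclear receptors of the PPAR family and are induced in muscle during a fast.

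The 13 arrays had the same scaled mean signal, and r between pairs of arrays lay between 0.834 and 0.940 over the 26383 tested probe sets, which are no independent replicates. Of the markers of skeletal muscle, 5 of 8 were tested, and each was bright in all animals (lowest signal 1487, for TTN). Signals are MAS5 signals on a linear scale, and differences are on the log2 scale as CR minus control. A probe set is a group of probes read as 1 signal, and whether each matches a single transcript was not checked. A level is compared here only within a probe set. Several animals lay at an end of the marker levels. Control replicate 4 had the highest mean log2 level of adipocyte markers, 11.89, followed by CR replicate 2 at 11.58. CR replicate 8 had the lowest of slow-twitch markers, 11.02, followed by CR replicate 4 at 12.54. CR replicate 1 had the lowest of fast-twitch markers, 14.20, followed by control replicate 4 at 15.10.

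None of the 10 genes passed the test between the diets. Of their 16 probe sets, 15 were bright enough to be tested, and all 10 genes kept at least 1. With limma's moderated test and Benjamini-Hochberg adjustment over all 26383 probe sets, 0 of the 15 passed an adjusted p of 0.05 (adjusted p = 0.999 for each), and the share called over all probe sets was 0%. At an unadjusted p under 0.05 the count was 0 of 15, where 2.43% of all probe sets tested were called. Exact two-sided permutation tests over the 1287 splits of the animals gave a lowest p of 0.0591 among the 15, before any adjustment. The diets overlapped for each of the 15, and 0.072% of all probe sets tested did not overlap. The log2 differences ran from -0.77 for CD36 to 0.46 for UCP3, with a median of -0.14 against -0.01 over all probe sets tested. In 12 of the 15 the mean was lower in CR, where 51.9% of all probe sets tested had a mean lower in CR. Probe sets of the same gene are no separate genes, and by the brightest probe set of each gene the count was 8 of 10. Several of these differences, those of LPL, FABP3 and SLC27A1 among them, changed sign with 1 animal left out. The median half-width of the 95% intervals was 0.60, so differences of that size, and with the adjusted threshold larger ones, could be missed.

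**Figure D1:**
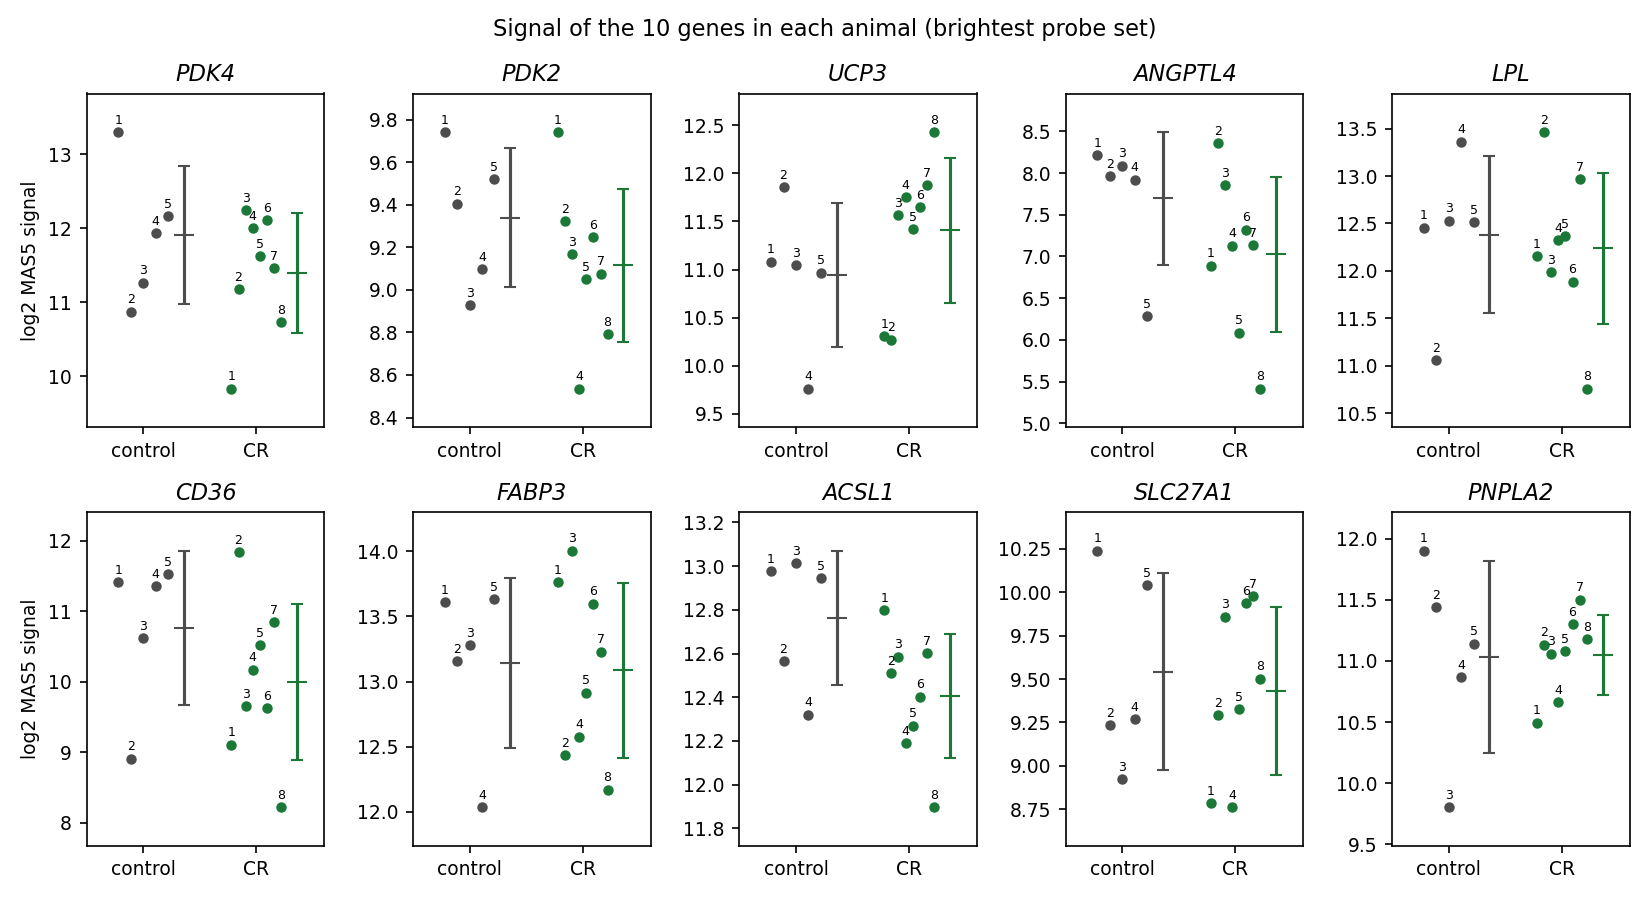
Log2 MAS5 signal of each of the 10 genes, by its brightest probe set, in 5 control animals (grey) and 8 CR animals (green), with a separate log2 axis for each gene. Each point is 1 animal with its replicate number, and the bar beside the points gives the mean ± SD; the diets overlap in every panel, and CR replicate 8 is the lowest animal for ANGPTL4, LPL, CD36 and ACSL1 and the highest for UCP3.

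The kinases that hold back glucose oxidation come first. PDK4, the pyruvate dehydrogenase kinase most strongly induced by fasting, had signals of 10078, 1873, 2463, 3919 and 4597 in control replicates 1 to 5. In CR its lowest signal was 912, in CR replicate 1, its median 2982 and its highest 4845, in CR replicate 3. Control replicate 1 lay above the other 12 animals, 6 of the 8 CR animals lay within the control range, and 2 lay below it. The PDK4 log2 level averaged 11.91 ± 0.93 (SD) in the 5 controls and 11.40 ± 0.81 (SD) in the 8 CR animals, a difference of -0.51 ± 0.41 (SE, 95% interval -1.39 to 0.36). That value rested in large part on control replicate 1, since without it the difference was -0.16.

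PDK2, a kinase of the same complex that is widely expressed, varied less. Its control signals were 857, 678, 487, 548 and 735, and in CR they ran from 371 in CR replicate 4 through a median of 557 to 855 in CR replicate 1. The highest animals of both diets were thus alike, while 7 of the 8 CR animals lay below the control mean. PDK2 differed by -0.22 ± 0.20 (SE, 95% interval -0.66 to 0.21), by -0.12 without control replicate 1 and by -0.38 with RNA quality ratios as covariates.

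UCP3, a carrier of the inner mitochondrial membrane found mainly in skeletal muscle, was the gene with the largest positive difference among the 10. Its signals were 2171, 3708, 2119, 869 and 2001 in the controls. In CR the lowest was 1237, in CR replicate 2, the median 3121 and the highest 5517, in CR replicate 8. In CR, 6 animals exceeded the control mean and 2 the whole control range, but CR replicates 1 and 2 lay between the lowest control and the other controls. UCP3 differed by 0.46 ± 0.37 (SE, 95% interval -0.31 to 1.24), and the value fell to 0.17 without control replicate 4, the animal with the lowest signal. Without both that animal and CR replicate 8, a setting chosen after the data were seen, it was 0.024. These were the lowest control and the highest CR animal for UCP3, so leaving them out had to lower the difference.

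Fat release at the capillary is set by LPL, lipoprotein lipase, and by ANGPTL4, a secreted protein that inactivates it. The brighter ANGPTL4 probe set had control signals of 298, 249, 272, 242 and 78.0. In CR the lowest was 42.7, in CR replicate 8, the median 140 and the highest 329, in CR replicate 2. The first 4 controls lay close together, control replicate 5 lay far below them, and 2 CR animals lay below the whole control range. The difference was -0.67 ± 0.46 (SE, 95% interval -1.64 to 0.30). Leaving out control replicate 5 gave -1.02, leaving out CR replicate 8 gave -0.44, and leaving out CR replicate 8 with control replicate 4 gave -0.38. CR replicate 8 was the lowest CR animal and control replicate 4 lay above the control mean, so leaving both out had to raise the difference.

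The dimmer ANGPTL4 probe set did not pass the filter on dim signals and was not tested. Its control signals were 58.0, 22.8, 43.7, 401 and 53.3, and in CR they ran from 11.9 through a median of 24.0 to 200, in CR replicate 2. Control replicate 4 and CR replicate 2 stood out here, which in the brighter probe set held only for CR replicate 2 as the highest animal. The probe sets correlated with r = 0.43 (rho = 0.46) over the 13 animals.

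LPL had 4 probe sets, which fell into unlike pairs. The brightest had control signals of 5613, 2133, 5909, 10535 and 5835, and CR signals from 1734 in CR replicate 8 through a median of 4851 to 11296 in CR replicate 2. The next brightest followed the same animals (r = 0.93, rho = 0.87, n = 13), with 2236, 675, 1322, 2993 and 2013 in controls and 726 to 3474 in CR. The third and the dimmest correlated with each other (r = 0.57, rho = 0.63) but with r of only 0.05 and -0.14 with the brightest. Signals of the third ran from 802 to 1304 in controls and from 313 to 1418 in CR, and those of the dimmest from 388 to 864 in controls and from 440 to 730 in CR.

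The LPL differences between the diets were small beside their errors in each probe set. From brightest to dimmest they were -0.14 ± 0.39, -0.19 ± 0.37, -0.10 ± 0.28 and 0.02 ± 0.20 (SE). Single animals turned each of them: the brightest gave 0.10 when control replicate 4 was left out and -0.48 when control replicate 2 was. No direction can thus be given for LPL.

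Uptake into the fibre involves CD36, a membrane receptor that carries long-chain fatty acids, and SLC27A1, the fatty acid transport protein FATP1. CD36 had signals of 2715, 480, 1570, 2618 and 2952 in controls. In CR the lowest was 298, in CR replicate 8, the median 978 and the highest 3653, in CR replicate 2. Control replicate 2 was low and the other controls high, while 6 CR animals lay within the control range. The difference of -0.77 ± 0.53 (SE, 95% interval -1.88 to 0.35) was the largest among the tested probe sets of the 10 genes, and so was its error. Without control replicate 2 it was -1.23, without CR replicate 8 it was -0.51, and without CR replicate 8 and control replicate 4 it was -0.37. As CR replicate 8 was the lowest CR animal and control replicate 4 lay above the control mean, that last step had to raise the difference.

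SLC27A1 had control signals of 1210, 602, 486, 617 and 1054, and CR signals from 434 through a median of 683 to 1008. Control replicates 1 and 5 and CR replicates 3, 6 and 7 formed its upper end. It differed by -0.11 ± 0.27 (SE, 95% interval -0.68 to 0.46), by 0.06 without control replicate 1 and by -0.39 with RNA quality ratios as covariates.

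Inside the fibre, FABP3, the heart and muscle fatty acid binding protein, had control signals of 12502, 9139, 9947, 4202 and 12715. Its CR signals ran from 4608, in CR replicate 8, through a median of 8662 to 16451, in CR replicate 3. Each diet thus had animals at both ends, and the difference was -0.06 ± 0.33 (SE, 95% interval -0.75 to 0.63).

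ACSL1, which attaches coenzyme A to long-chain fatty acids, had the lowest p of the 10 genes. Its brighter probe set gave 8066, 6061, 8276, 5114 and 7881 in controls, and in CR a lowest signal of 3814, in CR replicate 8, a median of 5625 and a highest of 7121, in CR replicate 1. Of the 8 CR animals 7 lay below the control mean and 3 below the whole control range. The difference was -0.36 ± 0.17 (SE, 95% interval -0.72 to 0.01; unadjusted p = 0.0533 and adjusted p = 0.999 with limma), and it lay between -0.47 and -0.28 with each animal left out. The dimmer probe set agreed in part (r = 0.68, rho = 0.73, n = 13), with control signals from 1435 to 3903 and CR signals from 1736 to 3138. It differed by -0.18 ± 0.24 (SE), and by -0.02 without control replicate 5.

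PNPLA2 encodes adipose triglyceride lipase, which starts the breakdown of stored triglyceride. Its probe sets gave unlike patterns (r = -0.15, rho = -0.18, n = 13). The first, with the higher mean over all animals, had control signals of 3831, 2781, 894, 1870 and 2259 and CR signals from 1444 through a median of 2204 to 2900, so all 8 CR animals lay within the control range. It differed by 0.02 ± 0.27 (SE), and by -0.29 without control replicate 3. The other had control signals of 2380, 2329, 2120, 2073 and 1792 and CR signals from 1771 through a median of 1877 to 2803, and differed by -0.11 ± 0.14 (SE).

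**Figure D2:**
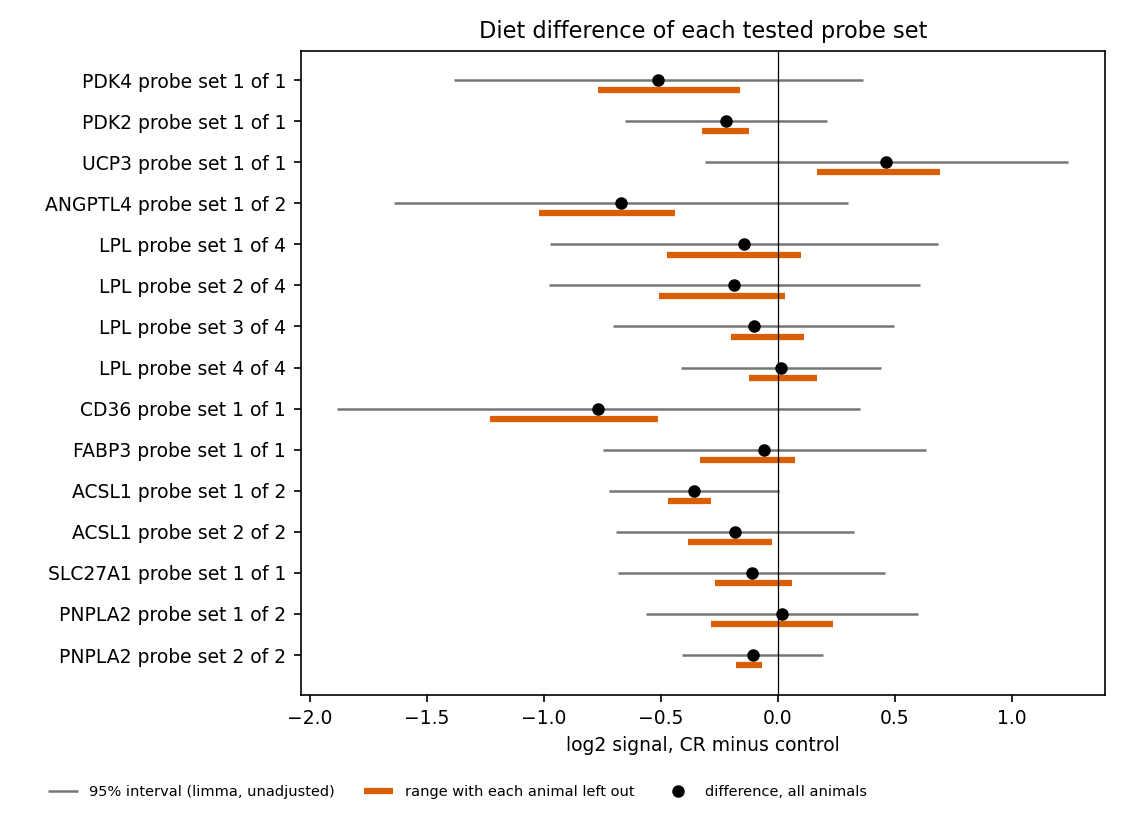
Log2 difference (CR minus control) of the 15 tested probe sets of the 10 genes. Points are the differences over all animals, grey lines the 95% intervals from limma before adjustment, and orange bars the range when each animal is left out in turn; every grey line crosses 0, and the orange bars of the 4 LPL probe sets, FABP3, SLC27A1 and the first PNPLA2 probe set cross 0 as well.

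The 10 genes were then compared with each other across animals, each by its brightest probe set. Of the 45 pairs, 2 passed a permutation test of Pearson's r with Benjamini-Hochberg adjustment over the 45, and both were positive. LPL and CD36 correlated with r = 0.89 (p = 2e-05, adjusted p = 0.0009 by permutation) and rho = 0.90 (p = 7e-05, adjusted p = 0.00315), over 13 animals of both diets. CR replicate 8 and control replicate 2 were the lowest animals for both genes, and CR replicate 2 was the highest for both. Without CR replicate 8 and control replicate 2, the animals farthest from the LPL median, r was 0.78 (p = 0.00475 by permutation, adjusted p = 0.122). Within the CR animals alone r was 0.95 (n = 8, exact permutation p = 0.000843, adjusted p = 0.0379), and no value was computed within the 5 controls. The pair kept its call when each of the 13 animals was left out in turn, with r between 0.84 and 0.92.

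Which LPL probe set was used mattered. Both brighter LPL probe sets followed CD36 (r = 0.89 and r = 0.94), and both dimmer ones did not (r = 0.32 and r = 0.09, with rho = 0.18 for each). All of them carried the same gene name, and which transcripts the unlike probe sets of LPL or PNPLA2 match was not checked here.

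SLC27A1 and PNPLA2 were the other pair, with r = 0.75 (p = 0.00131, adjusted p = 0.0295 by permutation) and rho = 0.74 (p = 0.00498, adjusted p = 0.112). The adjusted p was over 0.05 without 8 of the 13 animals in turn, r being 0.68 (adjusted p = 0.148) without control replicate 1. Without control replicates 1 and 5, the animals farthest from the SLC27A1 median, r was 0.70 (permutation p = 0.0118, adjusted p = 0.133). Within the CR animals r was 0.89 (n = 8, exact permutation p = 0.00337, adjusted p = 0.0759). The other PNPLA2 probe set correlated with SLC27A1 at r = -0.37, so the relation held for 1 PNPLA2 probe set only.

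Among the other pairs the lowest p values of r were those of UCP3 with LPL, r = -0.72 (adjusted p = 0.0835 by permutation), and of FABP3 with ACSL1, r = 0.69 (adjusted p = 0.0958). By rank they had rho = -0.63 (adjusted p = 0.266 by permutation) and rho = 0.71 (adjusted p = 0.125). Without the 2 animals farthest from the median, r was -0.51 and 0.54. Among PDK4, UCP3 and ANGPTL4, the PPAR targets named above, r was 0.03 for PDK4 with UCP3 and 0.28 for PDK4 with ANGPTL4. It was -0.44 for UCP3 with ANGPTL4, and none of these pairs passed. Other genes examined here may be PPAR targets too, so these pairs do not speak for such targets as a whole.

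**Figure D3:**
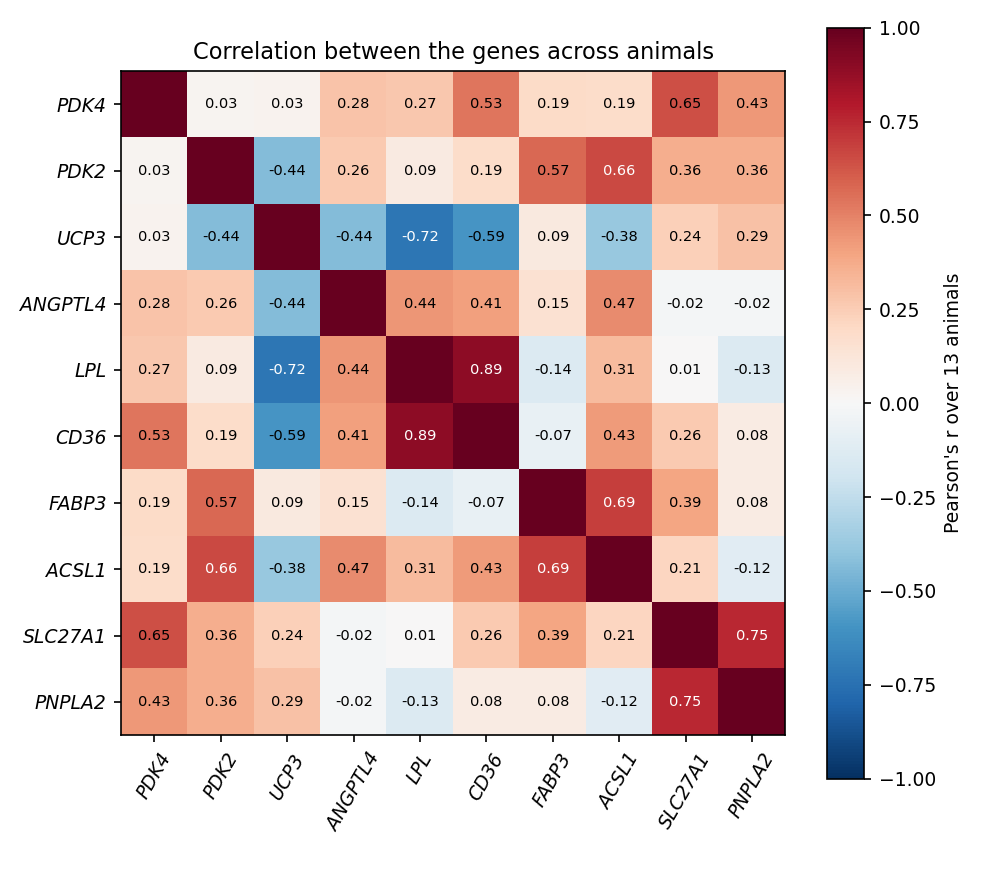
Pearson's r between the log2 signals of the 10 genes, each by its brightest probe set, over the 13 animals. The colour runs from blue (-1) to red (1); LPL with CD36 (0.89) and SLC27A1 with PNPLA2 (0.75) were the 2 pairs that passed after adjustment, and UCP3 was negative with LPL (-0.72) and CD36 (-0.59).

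A piece of thigh muscle holds fat cells and capillaries besides its slow and fast fibres, so markers of these were set beside the 10 genes. In such tissue, fewer cells of a type and less RNA per cell cannot be told apart. A total of 50 relations, of 10 genes with the mean log2 level of 5 marker lists, were computed after the data had been seen. Of these, 6 passed a permutation test of r after adjustment over the 50. The number was between 0, without CR replicate 8, and 7, without CR replicate 1, when each animal was left out.

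UCP3 followed the fast-twitch fibre markers, with r = 0.81 (p = 0.00035, adjusted p = 0.0175 by permutation) and rho = 0.90 (adjusted p = 0.0035). CR replicate 8 was highest for both, and control replicate 4 and CR replicate 1 were among the lowest for both. Without these last 2 animals, the farthest from the median of the markers, r was 0.94 (adjusted p = 0.0025), and without CR replicate 8 it was 0.78 (adjusted p = 0.0602). Of 10 fast-twitch markers 7 were tested, and 5 of these had a higher mean in CR, none passing limma's test: TNNT3 differed by 0.33 ± 0.22 and TNNI2 by 0.28 ± 0.21, both troponin subunits of fast fibres, TNNC2 by 0.27 ± 0.20 and the calcium pump gene ATP2A1 by 0.21 ± 0.27 (SE). The summed signal of the 7 ran from 306076 to 553842 in controls and from 304847 to 655407 in CR. Within CR, PVALB and ACTN3 varied most of the 7, with log2 SDs of 2.05 and 1.18, so they weigh most in the mean log2 level. They differed by -0.03 ± 0.86 and 0.07 ± 0.46 (SE) between the diets. UCP3 was not compared with single markers. UCP3 also had r = -0.72 with the endothelial markers (adjusted p = 0.0470 by permutation), and r was -0.57 (adjusted p = 0.269) without control replicate 4. By rank this relation did not pass (rho = -0.59, adjusted p = 0.172 by permutation). The part of fibre type in the UCP3 difference between the diets was not tested.

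LPL and CD36 both followed the adipocyte markers. LPL had r = 0.81 (adjusted p = 0.0282 by permutation) and CD36 r = 0.77 (adjusted p = 0.0360). By rank neither passed, with rho = 0.77 (adjusted p = 0.0610 by permutation) and rho = 0.76 (adjusted p = 0.0632). Control replicate 4 and CR replicate 2 were the highest for the markers and for LPL. Without these 2 animals, the farthest from the median of the markers, r was 0.66 for LPL (adjusted p = 0.148) and 0.69 for CD36 (adjusted p = 0.123). Both dimmer LPL probe sets had r of 0.33 and -0.20 with the markers.

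Of 12 adipocyte markers 8 were tested, 3 with a higher and 5 with a lower mean in CR, and none passed or was at 0 in any animal. Their summed signal overlapped widely, from 12324 to 54741 in controls and from 8393 to 58689 in CR. FABP4, the fatty acid binding protein of fat cells and also of capillaries, differed by -0.66 ± 0.58 (SE), the lipid droplet protein gene CIDEA by -0.66 ± 0.66, THRSP, a regulator of fat synthesis, by 0.62 ± 0.52 and GPD1, a glycerol phosphate dehydrogenase also present in muscle fibres, by 0.33 ± 0.32. The adipokine gene ADIPOQ ranged from 372 to 1455 and LEP from 28.1 to 2232 in signal over the animals. All 8 tested endothelial markers of 10 (KDR was too dim) had a lower mean in CR, none passing: CLDN5 differed by -1.01 ± 0.52 (SE), PECAM1 by -0.54 ± 0.32, NOS3 by -0.52 ± 0.32 and VWF by -0.50 ± 0.29. Their summed signal ran from 6923 to 19232 in controls and from 4811 to 11328 in CR. Over all probe sets tested, 51.9% had a lower mean in CR. For the endothelial marker EGFL7, 5 of the 8 CR animals lay above the control mean. CD36 and LPL had r of 0.70 and 0.66 with the endothelial markers (adjusted p = 0.0566 and 0.0793 by permutation). The part of fat cells or capillaries in the CD36 and LPL values was not tested.

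PDK2 and ACSL1 followed the slow-twitch fibre markers. PDK2 had r = 0.74 (adjusted p = 0.0425 by permutation) and ACSL1 r = 0.72 (adjusted p = 0.0470). By rank neither passed, with rho = 0.70 (adjusted p = 0.103 by permutation) and rho = 0.62 (adjusted p = 0.172). Without CR replicates 4 and 8, r was 0.59 for PDK2 (adjusted p = 0.282 by permutation) and 0.37 for ACSL1 (adjusted p = 0.595). Those animals were the farthest from the median of the markers. Without CR replicate 8 alone the ACSL1 value was 0.53 (adjusted p = 0.300 by permutation). Each relation kept its call in 4 of the 13 runs with an animal left out. Only the brighter ACSL1 probe set was compared with the markers. All 8 tested slow-twitch markers of 9 had a lower mean in CR and none passed: the calcium-binding CASQ2 differed by -1.66 ± 0.79, the calcium pump gene ATP2A2 by -0.66 ± 0.67, and the troponin genes TNNI1 and TNNC1 by -0.59 ± 0.75 and -0.52 ± 0.55 (SE). Their summed signal ran from 96431 to 436578 in controls and from 22705 to 492169 in CR. Over all probe sets tested, 51.9% had a lower mean in CR. For TNNT1 and MYL3, 4 of the 8 CR animals each lay above the control mean. The mean log2 level of the markers was 11.02 in CR replicate 8, far below the next lowest, 12.54 in CR replicate 4. How far CR replicate 8 carried the lower means was not tested. The part of slow fibres in the ACSL1 and PDK2 differences was not tested. Macrophage markers, of which 6 of 8 were tested, had 2 higher and 4 lower means in CR, with MSR1 at 0.40 ± 0.41, AIF1 at -0.31 ± 0.39, CSF1R at -0.22 ± 0.32 and CD14 at -0.22 ± 0.39 (SE), and no relation to the 10 genes passed. Of the skeletal muscle markers TTN differed by -0.70 ± 0.32, MB by 0.36 ± 0.22, CKM by 0.29 ± 0.19 and CASQ1 by 0.17 ± 0.18 (SE), and none passed.

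**Figure D4:**
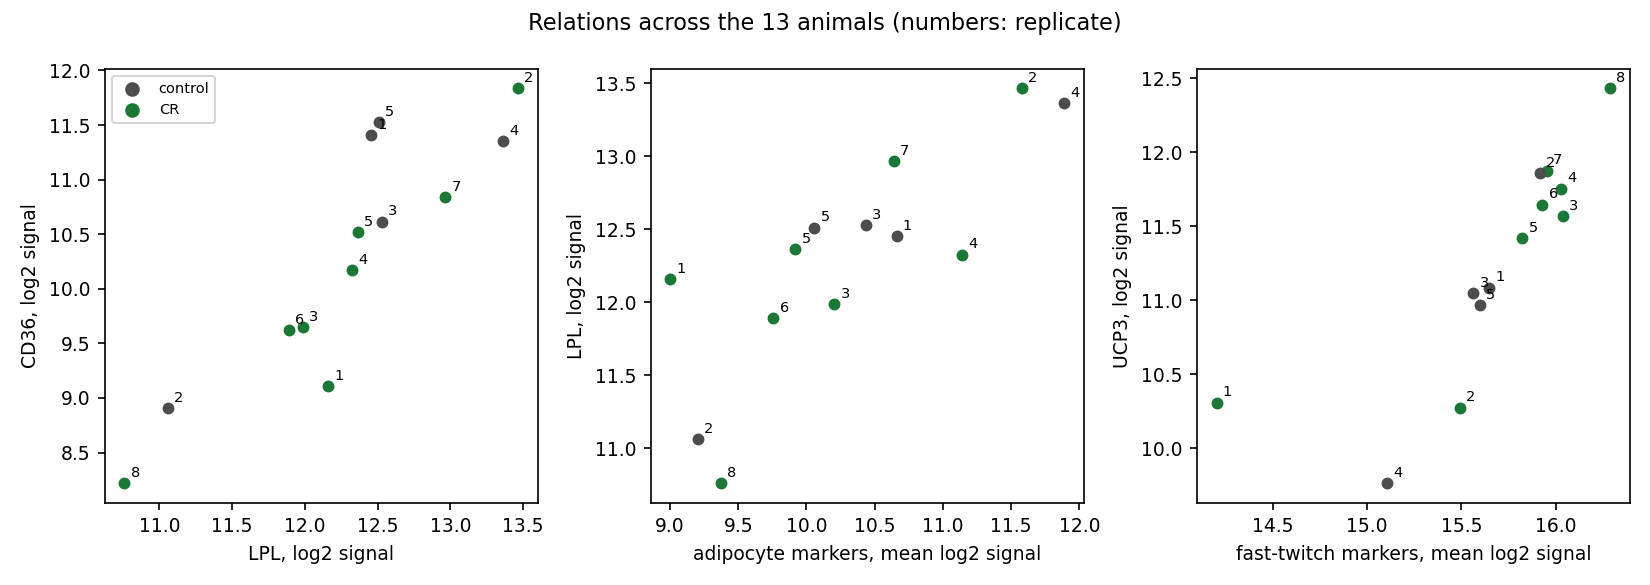
Log2 signals across the 13 animals, with control animals in grey and CR animals in green, and each point marked with its replicate number. From left to right: CD36 against LPL (r = 0.89), LPL against the mean log2 signal of the adipocyte markers (r = 0.81), and UCP3 against that of the fast-twitch fibre markers (r = 0.81); CR replicate 8 is the lowest animal for LPL and CD36 and the highest for UCP3.

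Other genes of the same pathways were counted from lists, each gene by its brightest tested probe set. Around the pyruvate dehydrogenase complex, 7 of 13 listed genes were tested, 4 with a higher and 3 with a lower mean in CR, and none passed limma's test (median difference 0.06). The further kinases went opposite ways in their means. PDK3 differed by 0.66 ± 0.41 (SE), with all 8 CR animals above the mean of the controls, and PDK1 by -0.47 ± 0.46. The log2 SD of PDK3 was 1.18 in controls and 0.38 in CR. Its lowest signal, 29.7, was in a control, far below the control mean of 124, so that mean was pulled down. DLD and PDHX, subunits of the complex, differed by 0.12 ± 0.23 and 0.10 ± 0.20.

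Of 21 regulators of the fasting response 16 were tested, 10 with a higher and 6 with a lower mean in CR (median 0.05), and none passed. KLF15, a glucocorticoid-induced transcription factor of muscle lipid use, differed by 0.27 ± 0.18 (SE), with all 8 CR animals above the mean of the controls. Its log2 SD was 0.48 in controls and 0.16 in CR. The lowest KLF15 signal, 1018, was in a control, below the control mean of 1455, so the controls spread more widely than the CR animals. The coactivator genes PPARGC1B and PPARGC1A differed by -0.25 ± 0.23 and 0.31 ± 0.32, and RXRB, a partner of the PPAR receptors, by -0.13 ± 0.14.

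Of 24 further genes of fatty acid uptake and lipid droplets 17 were tested, 6 with a higher and 11 with a lower mean in CR (median -0.14, the same as for the 15 probe sets above), and none passed. SLC27A4, another fatty acid transport protein, differed by -0.34 ± 0.21 (SE), the acyl-CoA synthetase gene ACSL5 by -0.52 ± 0.33, and CAV1, the caveolae protein, by -0.34 ± 0.28. ABHD5, the activator of adipose triglyceride lipase, differed by 0.35 ± 0.27. Of 22 genes of fatty acid entry into mitochondria and oxidation 14 were tested, 4 with a higher and 10 with a lower mean in CR (median -0.07), and none passed. HADHB, of the trifunctional protein, differed by -0.23 ± 0.27 (SE), CPT1A, of the carnitine shuttle, by -0.24 ± 0.32, MLYCD, which breaks down malonyl-CoA, by -0.17 ± 0.19 and the dehydrogenase gene ACADVL by 0.18 ± 0.28. Genes without a named probe set, such as CPT1B and PLIN2, were not analysed here, and PLIN5, PCK1, KDR and MARCO had probe sets too dim to be tested.

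The genes most like 4 of the 10 in their pattern over the 13 animals were sought among 9812 genes, by Pearson's r of the brightest probe sets. Nearest to UCP3 were AMPD1, the muscle AMP deaminase (r = 0.94), LOC707459 (r = 0.93) and ANKLE2 (r = 0.93). Nearest to LPL were NMS (r = 0.92), ALG6 (r = 0.92) and DPY19L3 (r = 0.91), closer than CD36 at 0.89. Nearest to ANGPTL4 were SPRY1, an inhibitor of growth factor signalling (r = 0.88), TRA2A, a splicing factor (r = 0.86), and POLR3GL (r = 0.84). Nearest to PDK4 were CHORDC1 (r = 0.82), LOC696403 (r = 0.82) and LOC698195 (r = 0.81), lower values than for the other 3 genes. These are the highest of many values and carry no test.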

How the data were processed

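Biotin-labelled cRNA from the muscle of 13 monkeys was hybridised, per the labels' protocols. MAS5 was the authors' tool for the deposited intensity values, as the submitters' processing notes give it, with no version in the sources used here. Their 2% trimmed mean was 500.04 or 500.05 on each array. Titles number the animals within each diet, and each array is 1 animal per the labels. The table held 52865 probe sets, of which 99 were controls.

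Signals were set to a floor of 1 (137 values) and log2 transformed, and the dimmer 50% of probe sets were left out, at a mean signal below 107. Gene names came from the platform's annotation (24956 probe sets had 1 symbol), with current symbols by Entrez ID for the lists. No genome build is named for the arrays, so no positions are given. Diets were compared in limma 3.58.1 (R 4.3.3) with lmFit and a trended eBayes, over all 26383 probe sets tested. Correlations used 100000 resamples, or all orders within the CR animals, in numpy 2.4.6. The smallest p that 100000 resamples can give is 1e-05. The 10 genes, the lists and the tests were chosen with earlier results of these data known. Each of the 10 genes is named, and from each list the 4 genes with the lowest p. On simulated data with 26383 probe sets, limma recovered 3 of 67 changed by 1.5-fold, 28 of 67 by 2-fold and 55 of 66 by 4-fold, with 4 false calls. Alternatives were an offset of 16, quantile normalization, no filter, median centring, array weights, eBayes without the trend, RNA quality covariates, the replicate block, averaged probe sets of a gene, exact tests and each animal left out.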

Additional observations from a re-analysis of the deposited data

Results flagged for a closer look

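The 15 tested probe sets were searched, within each diet, for an animal far from all others. This gave 3 in 30 groups, where chance gives about 1 in 20, or 1.5. Control replicate 5 had the lowest log2 signal of the brighter ANGPTL4 probe set among controls, 6.28, with the next at 7.92. CR replicate 1 had the lowest log2 signal of the third LPL probe set in its group, 8.29, with the next at 9.61. The same animal had the highest log2 signal of the second PNPLA2 probe set, 11.45, with the next at 11.03.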

How the results depend on the processing

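No tested probe set of the 10 genes passed an adjusted p of 0.05 in limma under any of the 9 refitted settings or with any of the 13 animals left out. The lowest adjusted p was 0.999 over those settings and 0.903 with an animal left out. Over all probe sets the count was 0 under those settings and from 0 to 1 with an animal left out. PDK4, PDK2, UCP3, ANGPTL4, CD36, both ACSL1 probe sets and the second PNPLA2 probe set kept their direction throughout, but not their size. UCP3 gave 0.024 without control replicate 4 and CR replicate 8, and 0.12 with the replicate block. In the same order CD36 gave -0.37 and -0.51. By their levels of both genes, leaving out control replicate 4 and CR replicate 8 had to shift both differences that way. With the replicate block, CR animals whose number no control shares do not enter the difference, CR replicate 8 among them. Values under that setting thus also reflect fewer CR animals. PDK2 gave -0.38 and the dimmer ACSL1 probe set -0.41 with the RNA quality covariates. Of 138 values under other settings, 14 turned sign, all in LPL or PNPLA2. For the brightest LPL probe set the difference was 0.018 with array weights and 0.077 with the replicate block. The third LPL probe set gave 0.0051 with the RNA quality covariates. The dimmest gave -0.048 with those covariates, -0.045 with array weights and -0.13 with the replicate block. The first PNPLA2 probe set gave -0.16, -0.047 and -0.15 in the same order, and -0.043 for the mean of the gene's probe sets. With both control replicate 4 and CR replicate 8 removed, which was chosen after seeing the data, LPL gave 0.31, 0.17 and -0.17 for the first, second and dimmest probe set and PNPLA2 -0.039 for the first. For both brighter LPL probe sets these were the highest control and the lowest CR animal. For the dimmest they were the lowest control and the highest CR animal. The way these LPL differences moved was thus fixed by the choice of animals. The cause of the turned signs was not tested.

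With each animal left out the LPL differences ran, from the brightest probe set on, from -0.48 to 0.10, from -0.51 to 0.030, from -0.20 to 0.11 and from -0.12 to 0.17. FABP3 ran from -0.33 to 0.074, SLC27A1 from -0.27 to 0.063 and the first PNPLA2 probe set from -0.29 to 0.24.

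Of the 45 gene pairs, 2 passed with all animals, 0 without the 2 animals farthest from the median, 1 within the CR animals, 1 without control replicate 4 and CR replicate 8, and from 1 to 3 with an animal left out. Of the 50 relations to marker lists, 6 passed. Of these 6, UCP3 with the fast-twitch markers alone also passed without the 2 farthest animals (adjusted p = 0.0025) and without control replicate 4 and CR replicate 8 (adjusted p = 0.005). It was also the only one of the 6 that passed the permutation test of rho (adjusted p = 0.0035). CD36 with the fast-twitch markers, which did not pass over all animals (r = -0.16), passed without the 2 farthest (r = -0.85, adjusted p = 0.0252). No sign was seen that the replicate numbers pair the animals: same-numbered animals deviated with r from -0.20 to 0.02, and 0 of 5 pairs were above 0.1. These 5 values cannot exclude that the numbers follow an order or match that touches fewer genes. Besides the turned signs above, the replicate block changed no call. The dimmer ANGPTL4 probe set was too dim to be tested.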
